A study of Mus musculus with 12 samples.

Results

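The 111 annotated genes described here, coding and not, are those whose counted RNA was lowest when interferon-γ (IFN-γ) was left on a mouse B cell lymphoma line for 24 h. They were taken from the 53379 genes of the deposited count table by 3 criteria on CPM, a gene's count scaled to the total of its library. The unstimulated mean had to be at least 2 CPM, which 10013 genes met. The mean after 24 h had to be at most 0.67 of the unstimulated mean, which 171 of those met, and each of the 3 libraries of the 24 h group had to lie below each of the other 9 libraries, which left 114. Fcmr, Vpreb1 and Igll1 passed but are dropped by the rule by name, as are histone, Rag, Vpreb and Mcm symbols and Bcl2, whose ratio of 0.70 would not have passed. The rule thus used every library, the 24 h libraries against all others and the unstimulated mean, so the low level at 24 h is how the genes were found and is described without a test.

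The line derives from an Eµ-myc mouse of strain C57BL/6, where an immunoglobulin heavy chain enhancer drives Myc in B cells, and was grown in RPMI 1640 with 10% serum. The groups, with 3 libraries each, were unstimulated cells, cells given recombinant mouse IFN-γ at 5 ng/mL with the cytokine neutralised by antibody XMG1.2 at 50 µg/mL after 1 h or after 6 h, and cells exposed for 24 h. All stimulated cells were collected 24 h after IFN-γ was added, so the 1 h and 6 h groups held cells long after their exposure was blocked, and the groups are lengths of exposure rather than times of collection. Whether the unstimulated or the 24 h cells also received antibody is not given in the labels, and neither is whether the 3 libraries of a group came from separate cultures. The p-values below therefore measure only the spread between these libraries, which may be technical. A single line in culture limits the results to that line.

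IFN-γ binds its receptor at the cell surface, and the signal is passed through receptor-bound kinases to the nucleus, where GAS elements in promoters respond to it. The response is best known for the genes it raises, such as Irf1, the guanylate-binding proteins and the antigen presentation machinery. In these bulk libraries, fewer cells carrying a transcript and less of it in each cell cannot be told apart.

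The libraries held 49440358 to 67096610 counts each. The stimulation was visible in a list of 10 IFN-γ response genes, whose summed level was 2827 to 2884 CPM after 24 h, against 415.7 to 457.4 CPM in unstimulated cells. The 11 B lineage markers summed to 6334 to 6433 CPM after 24 h and to 6616 to 6810 CPM in unstimulated cells. Ighm was the largest part, at 2890 CPM after 24 h and 2949 CPM in unstimulated cells. By edgeR, described below, 5 of the 11 were called lower and 2 higher in 24 h against unstimulated cells. Of all tested genes, 8.35% were called lower and 10.3% higher. Markers of T and NK cells summed to at most 2.53 CPM in any library, with 7 of 14 at 0 throughout, and erythroid markers to at most 1.203 CPM, with 5 of 12 at 0. Myeloid markers summed to 5.403 to 6.28 CPM after 24 h and to 5.78 to 7.10 CPM in unstimulated cells, with 4 of 13 at 0 in every library. Stromal and endothelial markers summed to 90.1 to 94.1 CPM after 24 h and to 60.2 to 61.8 CPM in unstimulated cells, nearly all of it Pecam1, with 4 of 12 at 0. Plasma cell markers summed to 574.4 to 579.3 CPM after 24 h and to 701.2 to 731 CPM in unstimulated cells, with Irf4 at 310.7 CPM after 24 h and 456.2 CPM in unstimulated cells carrying the difference. The other markers did not share this fall as a group. By edgeR in 24 h against unstimulated cells, 1 of the 5 tested was called lower and 2 higher. Xbp1 was at 27.3 CPM after 24 h and 22.1 CPM in unstimulated cells, and Mzb1 at 224.3 and 223.2 CPM. On a principal component plot of all tested genes the first component, with 44.15% of the variance, separated the 24 h libraries, and the second, with 7.84%, separated replicate 3 of the 6 h group from the other 11 libraries. The calls and the counts by library on the 6 h group are therefore also given without that library; its levels and SDs hold all 3.

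Among the 111 genes the ratio of the 24 h to the unstimulated mean ran from 0.27 to 0.67 with a median of 0.615. Only 11 genes were at 0.5 or below, 33 lay between 0.5 and 0.6, and 67 lay between 0.6 and the threshold, so most of the set lay close to the threshold. Unstimulated levels ran from 2.01 CPM to 491 CPM with a median of 6.93 CPM, and 43 of the 111 were below 5 CPM. The genes nearest the ratio threshold were Tnks1bp1 at 0.6696 and Eno1b at 0.6698 inside it, and Rpl3l at 0.6719 and Tnfrsf19 at 0.6721 outside it. At the CPM threshold, Fam189a1 at 2.01 CPM and Pdzd2 at 2.19 CPM were inside, and Prss23 at 1.90 CPM and Rps15a-ps7 at 1.904 CPM were outside.

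Prss23, a secreted serine protease, was proposed as a marker of this set together with Pdzd2, but its unstimulated mean kept it out. It was at 0.618, 0.360 and 0.477 CPM after 24 h and at 1.69, 1.94 and 2.06 CPM in unstimulated cells, a ratio of 0.255 that is lower than that of any of the 111 genes. It met the other 2 criteria. Its counts were 20 to 36 after 24 h and 94 to 122 in unstimulated cells.

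By annotation (GENCODE M21, GRCm38), 55 of the 111 genes were protein coding, 49 were processed pseudogenes, 4 were long intergenic RNAs, 2 were unconfirmed transcripts and 1 was an immunoglobulin variable segment. Processed pseudogenes are copies of a messenger RNA that were reverse transcribed and inserted elsewhere in the genome without introns. They made up 44.1% of the set and 3.06% of the genes with an unstimulated mean of at least 2 CPM. A search of each gene's transcript against the coding genes split the set into 58 and 53. For 58 genes a multi-exon coding gene elsewhere matched at 90% identity or more over at least 50% of the length, here called a near copy, and for the other 53 none did. Every one of the 11 genes with a ratio of at most 0.5 was among the 53. Both classes are described below, the 53 first.

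**Figure D1:**
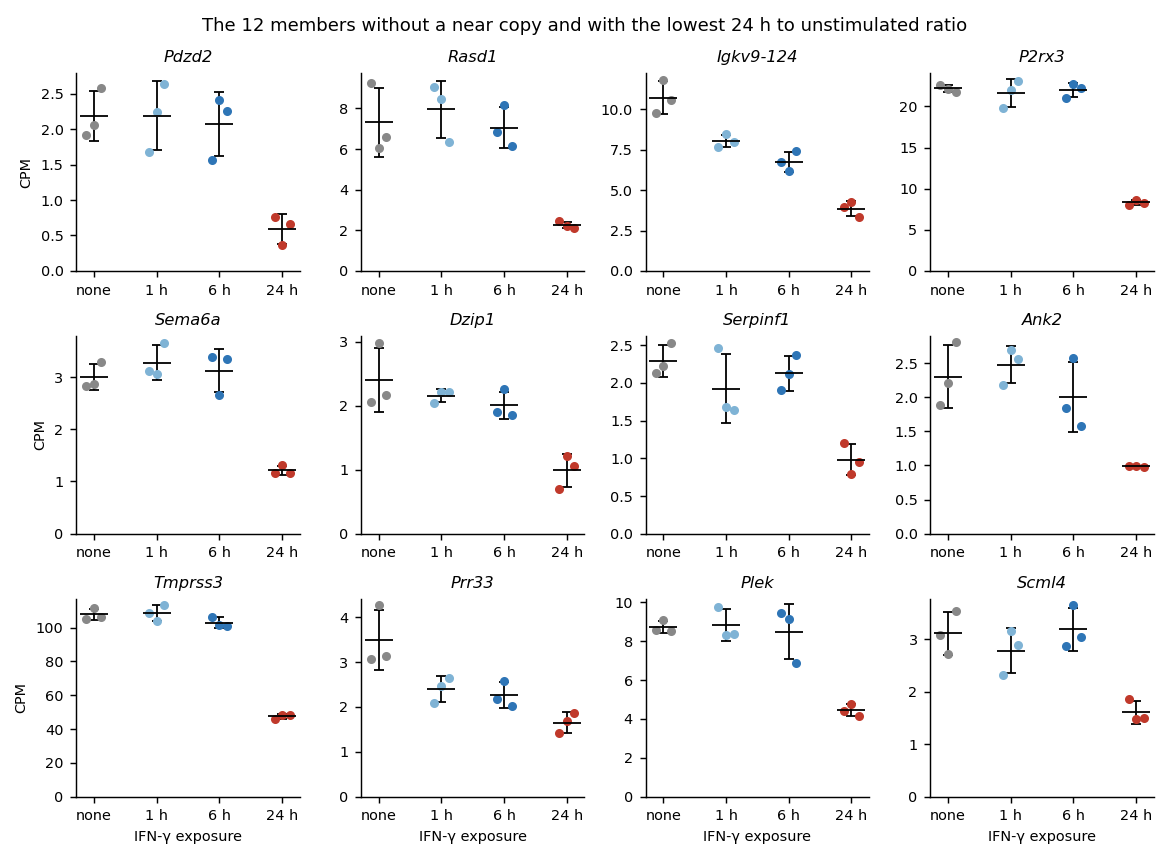
Level in CPM (vertical axis) of the 12 genes without a near copy that have an annotated symbol other than a predicted-gene name and the lowest ratios, by length of IFN-γ exposure (horizontal axis; none, 1 h, 6 h, 24 h). Each point is 1 library, and bars are the mean and SD of 3 libraries; in all 12 panels the 24 h libraries lie lowest, as the rule required, while the 1 h and 6 h libraries of most genes lie among the unstimulated ones, with Igkv9-124 and Prr33 below them.

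The lowest ratio belonged to Pdzd2, which encodes a large scaffold protein with several PDZ domains (chr15:12359711-12739924, minus strand). Pdzd2 was at 1.91, 2.06 and 2.59 CPM in unstimulated cells, 1.68, 2.24 and 2.64 CPM after 1 h, 1.56, 2.41 and 2.25 CPM after 6 h, and 0.755, 0.360 and 0.656 CPM after 24 h. The first 3 groups overlapped fully and the 24 h libraries stood well below. These levels rest on few reads, with 20 to 44 counts in the 24 h libraries. In the same scaffold and cytoskeleton group were Ank2, ankyrin-B, which ties membrane proteins to spectrin, with a mean of 0.99 CPM after 24 h and 2.30 CPM in unstimulated cells, and Dzip1, a basal body protein of the primary cilium, with 0.99 CPM after 24 h and 2.40 CPM in unstimulated cells. Dnm1, the membrane-severing GTPase dynamin 1, averaged 1.73 CPM after 24 h and 3.22 CPM in unstimulated cells. Syne2, the nuclear envelope protein nesprin-2, averaged 11.04 CPM after 24 h and 18.8 CPM in unstimulated cells. The actin crosslinker Actn1 averaged 4.12 CPM after 24 h and 6.32 CPM in unstimulated cells.

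Ahnak, which encodes a very large scaffold protein under the plasma membrane, was by far the most abundant gene of the set. It was at 452, 496 and 526 CPM in unstimulated cells, 500, 494 and 559 CPM after 1 h, 572, 548 and 479 CPM after 6 h, and 323, 327 and 309 CPM after 24 h. The first 3 groups overlapped and the 24 h libraries lay far below them. Myl4, a myosin light chain of atrial and embryonic muscle, was at 74.1, 71.4 and 76.3 CPM in unstimulated cells, 65.3, 66.2 and 66.1 CPM after 1 h, 57.6, 57.5 and 68.1 CPM after 6 h, and 42.3, 46.5 and 47.4 CPM after 24 h. Here neither blocked group overlapped the unstimulated libraries, and both lay between them and the 24 h libraries. Rsph1, a radial spoke protein of motile cilia, averaged 20.3 CPM after 24 h and 31.3 CPM in unstimulated cells.

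Of the signalling genes, Rasd1 had the lowest ratio, 0.309. Rasd1 encodes a small GTPase of the Ras family that is induced by dexamethasone (chr11:59963181-59964944, minus strand). It was at 9.26, 6.07 and 6.61 CPM in unstimulated cells, 9.03, 8.48 and 6.36 CPM after 1 h, 6.86, 8.15 and 6.16 CPM after 6 h, and 2.44, 2.23 and 2.12 CPM after 24 h. The 9 other libraries formed 1 range. Plek, pleckstrin, a protein kinase C substrate of platelets and leukocytes, averaged 4.45 ± 0.32 CPM after 24 h and 8.74 ± 0.31 CPM in unstimulated cells (SD, n = 3 each). Scml4, a Polycomb-related protein, averaged 1.61 CPM after 24 h and 3.12 CPM in unstimulated cells.

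Pik3ap1 encodes BCAP, an adaptor that links the B cell receptor to phosphoinositide 3-kinase. It was at 101, 93.1 and 93.7 CPM in unstimulated cells, 95.5, 100.1 and 93.8 CPM after 1 h, 102, 99.2 and 84.4 CPM after 6 h, and 58.3, 63.1 and 55.6 CPM after 24 h. The 3 other groups lay close together, and the lowest of their libraries was replicate 3 of the 6 h group. Rgs10, which speeds GTP hydrolysis by Gα subunits, averaged 2.22 CPM after 24 h and 3.87 CPM in unstimulated cells. Spred2, an inhibitor of the Ras to ERK pathway, averaged 6.597 CPM after 24 h and 10.4 CPM in unstimulated cells. Edaradd, the adaptor of the ectodysplasin receptor, averaged 2.72 CPM after 24 h and 4.18 CPM in unstimulated cells, and Klhl14, a BTB-kelch protein, 9.62 CPM after 24 h and 14.8 CPM in unstimulated cells.

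Fosb, an AP-1 transcription factor of the immediate early class, met the rule although its libraries scattered widely. It was at 6.45, 8.58 and 14.4 CPM in unstimulated cells, 9.59, 8.83 and 15.0 CPM after 1 h, 7.48, 10.4 and 19.99 CPM after 6 h, and 5.08, 5.58 and 4.89 CPM after 24 h. Replicate 3 was the highest library in each of the first 3 groups and the lowest in the 24 h group. The SD was 4.13 CPM in unstimulated cells and 6.55 CPM after 6 h, against 0.359 CPM after 24 h.

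The ion channels and transporters were led by P2rx3, an ATP-gated cation channel best known from sensory neurons (chr2:84998583-85037462, minus strand). P2rx3 was at 22.7, 22.1 and 21.8 CPM in unstimulated cells, 19.8, 21.98 and 23.05 CPM after 1 h, 21.02, 22.7 and 22.2 CPM after 6 h, and 8.07, 8.68 and 8.32 CPM after 24 h. The 3 groups without sustained exposure overlapped, and the ratio of the 24 h to the unstimulated mean was 0.376. Hvcn1, the voltage-gated proton channel that B cells use beside the NADPH oxidase (chr5:122206804-122242297, plus strand), was at 170, 166 and 163 CPM in unstimulated cells, 139, 146 and 145 CPM after 1 h, 150, 150 and 138 CPM after 6 h, and 88.7, 90.4 and 91.5 CPM after 24 h. Both blocked groups lay below every unstimulated library and well above the 24 h libraries. Itpr3, an inositol trisphosphate receptor that releases calcium from the endoplasmic reticulum, averaged 18.6 CPM after 24 h and 28.2 CPM in unstimulated cells, and the organic anion transporter Slco4a1 14.5 CPM after 24 h and 23.3 CPM in unstimulated cells.

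Atp1b1, the β1 subunit of the sodium-potassium pump (chr1:164437109-164458355, minus strand), took another course. It was at 49.6, 49.6 and 46.6 CPM in unstimulated cells, 65.3, 71.6 and 63.9 CPM after 1 h, 66.8, 72.4 and 62.8 CPM after 6 h, and 30.5, 29.7 and 31.4 CPM after 24 h. Every blocked library stood above every unstimulated one, and every 24 h library below.

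**Figure D2:**
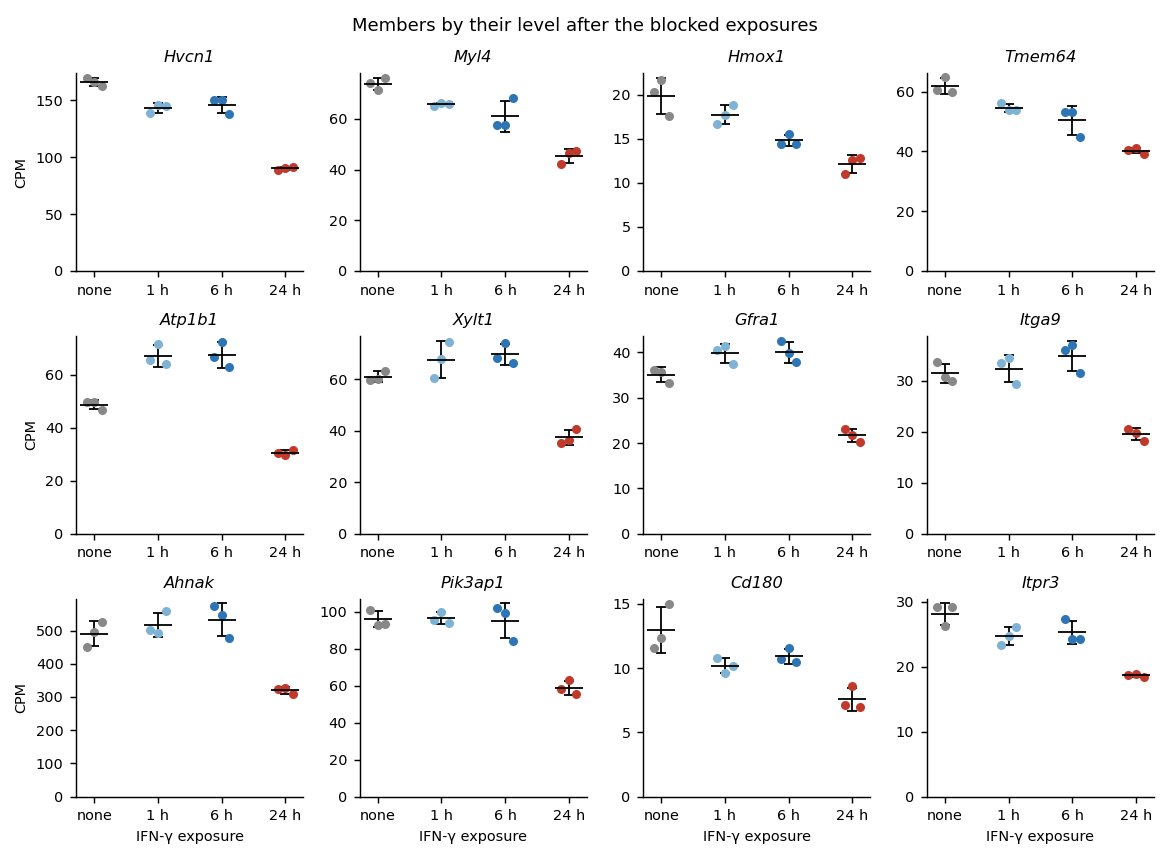
Level in CPM (vertical axis) of 12 genes without a near copy, by length of IFN-γ exposure (horizontal axis; none, 1 h, 6 h, 24 h), with 1 point per library and the mean and SD of 3. The blocked means of Hvcn1, Myl4, Hmox1 and Tmem64 lay between those of unstimulated and 24 h cells. Atp1b1 stood higher in both blocked groups than in unstimulated cells, and the blocked means of Xylt1 and Gfra1 were higher by less and not called. The blocked libraries of Ahnak and Pik3ap1 overlapped the unstimulated ones.

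Among the receptors and adhesion molecules, Cd180, a Toll-like receptor homologue of B cells also called RP105, was at 11.6, 12.3 and 15.0 CPM in unstimulated cells, 10.8, 9.61 and 10.1 CPM after 1 h, 10.7, 11.6 and 10.4 CPM after 6 h, and 7.11, 8.59 and 6.98 CPM after 24 h. Its 1 h libraries lay below the unstimulated ones and its 6 h libraries reached them. Cd180 lies inside Mast4 on the other strand, and Mast4 itself was at a log2 fold change of -0.53 between 24 h and unstimulated cells, so reads of the 2 genes cannot be told apart without the strand setting of the counting. Sema6a, a transmembrane semaphorin, averaged 1.21 CPM after 24 h and 2.99 CPM in unstimulated cells, the lowest ratio of the group at 0.406. Gfra1, the GDNF coreceptor, averaged 21.7 CPM after 24 h and 35.03 CPM in unstimulated cells, and Itga9, the integrin α9 chain, 19.5 CPM after 24 h and 31.4 CPM in unstimulated cells. Cldn10, a tight junction claudin, averaged 17.0 CPM after 24 h and 26.0 CPM in unstimulated cells, the netrin receptor relative Neo1 2.66 CPM after 24 h and 3.98 CPM in unstimulated cells, and the Nogo receptor relative Rtn4rl2 1.94 CPM after 24 h and 2.93 CPM in unstimulated cells.

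The secreted and glycosylation group held a pair with ratios under 0.5. Tmprss3, a serine protease anchored in the membrane and known from inherited deafness (chr17:31179265-31198977, minus strand), was at 105.4, 111.7 and 106.6 CPM in unstimulated cells, 108.9, 104.2 and 113.7 CPM after 1 h, 106.6, 101.3 and 101.2 CPM after 6 h, and 45.9, 48.5 and 48.4 CPM after 24 h. The first 3 groups overlapped and the 24 h libraries stood far below. Serpinf1, a secreted member of the serpin family that does not inhibit proteases, averaged 0.983 CPM after 24 h and 2.30 CPM in unstimulated cells. Galnt14, which starts O-linked glycans, averaged 8.71 CPM after 24 h and 14.9 CPM in unstimulated cells, and Xylt1, which starts glycosaminoglycan chains, 37.4 CPM after 24 h and 61.0 CPM in unstimulated cells. Umod, the kidney protein uromodulin, averaged 2.18 CPM after 24 h and 3.76 CPM in unstimulated cells. Egfl6, a secreted protein with EGF repeats, averaged 1.54 CPM after 24 h and 2.496 CPM in unstimulated cells, and the Kazal-type inhibitor relative Spink11 1.83 CPM after 24 h and 2.89 CPM in unstimulated cells.

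Hmox1, heme oxygenase 1, which breaks down heme (chr8:75093621-75100589, plus strand), was at 20.3, 21.6 and 17.6 CPM in unstimulated cells, 16.7, 17.7 and 18.8 CPM after 1 h, 14.4, 15.6 and 14.5 CPM after 6 h, and 11.04, 12.6 and 12.8 CPM after 24 h. The 1 h libraries overlapped the unstimulated ones and the 6 h libraries did not. Tmem64, a membrane protein, was at 60.5, 64.8 and 59.9 CPM in unstimulated cells, 56.1, 54.0 and 53.7 CPM after 1 h, 53.3, 53.2 and 44.7 CPM after 6 h, and 40.4, 41.1 and 39.2 CPM after 24 h. Each of the 4 groups lay below the one before it without overlap. Tram2, a protein of the endoplasmic reticulum translocon family, averaged 48.5 CPM after 24 h and 76.9 CPM in unstimulated cells, and the p53-inducible Trp53i11 18.5 CPM after 24 h and 29.6 CPM in unstimulated cells.

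Igkv9-124, a variable segment of the immunoglobulin κ locus (chr6:67942074-67942540, minus strand), was at 9.79, 11.8 and 10.6 CPM in unstimulated cells, 7.68, 8.45 and 7.97 CPM after 1 h, 6.72, 6.16 and 7.40 CPM after 6 h, and 3.93, 4.27 and 3.37 CPM after 24 h. The level stepped down with each longer exposure, and no 2 neighbouring groups overlapped. Variable segments resemble each other, so the value for the single segment is uncertain.

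The blocked exposures give the comparisons that the choice of genes touches least. Genes were tested with edgeR's quasi-likelihood F test over 14299 genes, and a gene is called at a Benjamini-Hochberg adjusted p under 0.05. In 6 h against unstimulated cells, 7 of the 111 genes were called, 6 lower and 1 higher, where 1.59% of all tested genes were called, 0.427% lower and 1.17% higher. Both lists share the unstimulated libraries with the rule, which asks for a high unstimulated mean and so favours a count of lower genes. The rule also asks that every blocked library lie above the 24 h libraries, which favours high blocked levels. The net direction of the choice was not tested. Atp1b1 was higher by 0.47 ± 0.06 on the log2 scale (± SE here and below; edgeR adjusted p = 4.1e-06). Igkv9-124 was lower at -0.67 ± 0.11 (edgeR adjusted p = 0.00037) and Hmox1 at -0.42 ± 0.08 (edgeR adjusted p = 0.0042). Tmem64 was lower at -0.29 ± 0.06 (edgeR adjusted p = 0.0066), Myl4 at -0.28 ± 0.06 (edgeR adjusted p = 0.010) and Hvcn1 at -0.19 ± 0.04 (edgeR adjusted p = 0.020). The last was Gm42427, an unconfirmed transcript, at -0.85 ± 0.21 (edgeR adjusted p = 0.036).

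Gm42427 (chr5:44137980-44143271, plus strand) was at 2.22, 2.75 and 2.42 CPM in unstimulated cells, 1.80, 1.83 and 2.28 CPM after 1 h, 1.14, 1.496 and 1.47 CPM after 6 h, and 0.944, 0.504 and 0.924 CPM after 24 h. Its 1 h libraries touched the range of the unstimulated ones and its 6 h libraries did not. The calls of Gm42427, Myl4 and Hvcn1 were lost when single libraries were left out, for example at an adjusted p of 0.083, 0.057 and 0.12 by edgeR without unstimulated replicate 1. Without unstimulated replicate 1, 4 of the 111 genes were called, where 0.608% of all tested genes were. Without replicate 3 of the 6 h group 9 were called, where 3.64% of all tested genes were. The 7 genes above remained called in that fit, with Atp1b1 at 0.52, Igkv9-124 at -0.74, Hmox1 at -0.40, Tmem64 at -0.21, Myl4 at -0.36, Hvcn1 at -0.15 and Gm42427 at -0.90 on the log2 scale and edgeR adjusted p of at most 0.041.

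In 1 h against unstimulated cells 2 of the 111 genes were called, where 0.42% of all tested genes were, 0.147% lower and 0.273% higher. Atp1b1 was higher by 0.47 ± 0.06 (edgeR adjusted p = 2.1e-05), all 3 libraries above all 3 unstimulated ones, and Hvcn1 was lower at -0.20 ± 0.04 (edgeR adjusted p = 0.023). The Hvcn1 call was lost without any 1 of 4 libraries, unstimulated replicates 1 and 3 and 1 h replicates 1 and 3, at adjusted p of 0.058 to 0.14 by edgeR. Igkv9-124 at -0.41 ± 0.10 missed the threshold (edgeR adjusted p = 0.085).

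In 6 h against 1 h, a comparison of groups that the rule used only as lying above the 24 h libraries, none of the 111 genes was called by edgeR, where 0.0979% of all tested genes were. At an unadjusted p under 0.05 there were 4, all lower after 6 h, where 4.94% of all tested genes passed in either direction and 1.9% passed as lower, and DESeq2 called 0. So small a count is no result about the set. The 4 were Hmox1 at -0.27 ± 0.08, Gm42427 at -0.54 ± 0.21, Igkv9-124 at -0.26 ± 0.11 and Tmem64 at -0.12 ± 0.06, with edgeR adjusted p of 0.48 to 0.99. The medians of the 111 log2 fold changes were -0.10 for 1 h and -0.09 for 6 h, each over unstimulated cells, and 0.00 for 6 h over 1 h, with the median of all tested genes at 0 or within 0.001 of it in each. Without replicate 3 of the 6 h group the median of the 111 was -0.06 for 6 h over unstimulated cells and 0.02 for 6 h over 1 h, and none was called by edgeR in 6 h against 1 h.

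Counted by library, 12 of the 111 genes had all 6 h libraries below all unstimulated ones (10.8%, against 10.3% of the genes with an unstimulated mean of at least 2 CPM), and 5 had them all above (background 8.63%). For 1 h the counts were 12 below (background 9.4%) and 3 above (background 6.28%). Below, the 6 h counts were 10 of the 53 genes without a near copy (18.9%) and 2 of the 58 with one (3.45%), and the 1 h counts were 9 of the 53 (17%) and 3 of the 58 (5.17%). Above, they were 5 of the 53 and 0 of the 58 for 6 h, and 3 of the 53 and 0 of the 58 for 1 h. In the counts below, the share over all 111 thus averages classes on either side of the background. The medians did not follow these counts. The median log2 fold change over unstimulated cells was -0.07 for the 53 and -0.11 for the 58 after 6 h. After 1 h it was -0.03 for the 53 and -0.12 for the 58. Without replicate 3 of the 6 h group, a count chosen after seeing the data, 17 of the 111 lay below (background 20.1%), 15 of the 53 and 2 of the 58, and 11 lay above (background 18.7%), 10 of the 53 and 1 of the 58. The 1 h and 6 h means of 43 of the 111 genes (38.7%) were both within 10% of the unstimulated mean. The share was 77.1% among the genes with an unstimulated mean of at least 2 CPM. The 6 h mean was more than 10% lower for 40 genes (36.0%, background 6.96%), 18 of the 53 and 22 of the 58. It was more than 10% higher for 11 (9.91%, background 10.1%), 9 of the 53 and 2 of the 58. These ratios hold the unstimulated mean that the rule asked to be high, and 43 of the 111 genes were below 5 CPM, so the counts are given as a description.

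**Figure D3:**
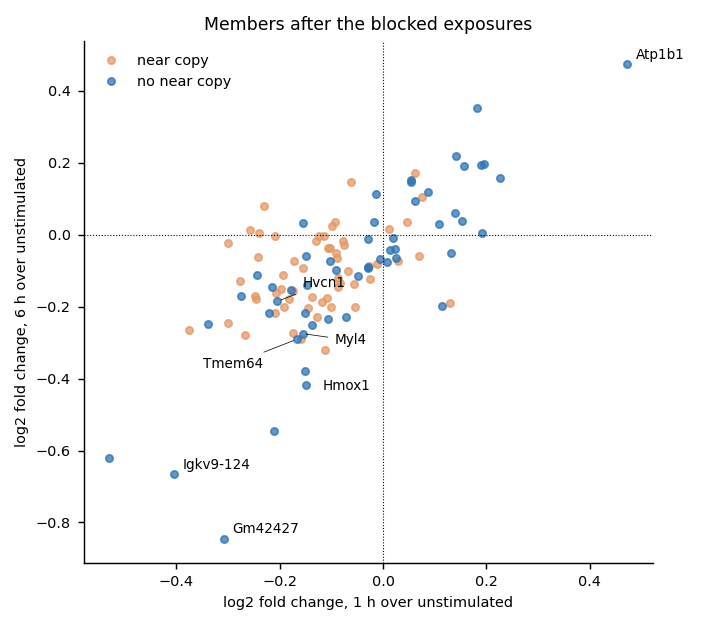
Log2 fold change over unstimulated cells after 6 h (vertical axis) and after 1 h (horizontal axis) for each of the 111 genes, coloured by whether a near copy exists, with the 7 genes called in either comparison named. Both axes share the unstimulated libraries, so points along the diagonal are partly built in; Atp1b1 stands alone at the upper right, and the genes called lower lie at the lower left.

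For the contrasts the rule used, 105 of the 111 genes were called lower in 24 h against unstimulated cells (8.35% of all tested genes), 90 in 24 h against 1 h (8.78%) and 93 in 24 h against 6 h (7.63%), and nothing is read from these counts. The 3 contrasts share the 24 h libraries.

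The other 58 genes each have a near copy. Of these, 49 were the processed pseudogenes, and the rest were 8 genes annotated as coding, such as Eno1b beside Eno1 and Hmga1b beside Hmga1, and Tagap, a GTPase-activating protein of lymphocytes, beside its paralogue Tagap1. Identity to the near copy was 95.1 to 100% with a median of 99.3%, and the longest stretch without a mismatch had a median of 330 bases. In 53 of the 58 that stretch was at least as long as a 125-base read. For 21 of the 58 the copy was a cytosolic ribosomal protein gene. The sequences below, 90 bases of the coding part in 5′ to 3′ direction from the GENCODE M21 transcripts, show how little separates such a gene from its source. Within the matched coding part, each stretch is the one with the most differences, and capitals mark the bases that differ.
Rps13-ps2: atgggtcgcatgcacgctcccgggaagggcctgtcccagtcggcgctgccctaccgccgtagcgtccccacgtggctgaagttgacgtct
Rps13: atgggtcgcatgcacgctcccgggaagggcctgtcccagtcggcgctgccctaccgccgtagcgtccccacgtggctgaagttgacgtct
Rps18-ps3: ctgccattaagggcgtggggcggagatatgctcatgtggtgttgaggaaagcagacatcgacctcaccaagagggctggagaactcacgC
Rps18: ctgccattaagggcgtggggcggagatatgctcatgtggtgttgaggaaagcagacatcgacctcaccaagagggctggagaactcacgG
Rps15-ps2: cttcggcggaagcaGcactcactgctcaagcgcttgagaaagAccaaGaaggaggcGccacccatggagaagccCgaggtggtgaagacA
Rps15: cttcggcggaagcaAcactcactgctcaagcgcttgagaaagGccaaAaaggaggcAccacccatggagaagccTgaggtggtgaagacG
Vcp-rs: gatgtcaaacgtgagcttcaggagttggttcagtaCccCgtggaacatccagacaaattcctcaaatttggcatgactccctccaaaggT
Vcp: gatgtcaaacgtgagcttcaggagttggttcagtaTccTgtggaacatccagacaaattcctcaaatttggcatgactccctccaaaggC
The pairs differ at 0, 1, 6 and 3 of the 90 bases in the order shown. A read from the Rps13-ps2 stretch and one from Rps13 are the same letters, and where such reads are placed is decided by the aligner and the counting.

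Rps13-ps2 (chr7:88530446-88530898, minus strand) was at 10.7, 12.1 and 18.7 CPM in unstimulated cells, 9.45, 13.1 and 11.97 CPM after 1 h, 16.99, 10.9 and 14.2 CPM after 6 h, and 8.51, 8.47 and 4.89 CPM after 24 h. The highest 24 h library was close to the lowest of the others. Rps13 itself, a subunit of the small ribosomal particle, was at 260 ± 20 CPM after 24 h and 249 ± 6.0 CPM in unstimulated cells (SD, n = 3 each), and its difference was not called (log2 0.06 ± 0.07, edgeR adjusted p = 0.59). Rps18-ps3 (chr8:107262793-107263248, minus strand) averaged 4.74 CPM after 24 h and 8.87 CPM in unstimulated cells, while Rps18 averaged 869 CPM after 24 h and 761 CPM in unstimulated cells, not called. Rps15-ps2 (chr6:58017506-58017943, plus strand) averaged 2.57 CPM after 24 h and 4.88 CPM in unstimulated cells, while Rps15 averaged 668 CPM after 24 h and 704 CPM in unstimulated cells, not called. Vcp-rs (chrX:104345829-104348234, minus strand), a relative of the ATPase gene Vcp, averaged 12.9 CPM after 24 h and 20.1 CPM in unstimulated cells, while Vcp averaged 544 CPM after 24 h and 576 CPM in unstimulated cells, not called.

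The most abundant gene with a near copy was Gm10275, which matches the ribosomal protein gene Rpl12 at every base of a 634-base stretch. It was at 82.5, 79.5 and 66.6 CPM in unstimulated cells, 66.98, 68.3 and 62.8 CPM after 1 h, 82.7, 65.4 and 62.9 CPM after 6 h, and 52.04, 42.4 and 37.7 CPM after 24 h. Rpl12 averaged 1019 CPM after 24 h and 1219 CPM in unstimulated cells, and was called lower by edgeR at -0.25 ± 0.04 (adjusted p = 0.0001), which was the largest fall among the copies.

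The 58 genes point to 53 different coding genes, and none of these had a ratio of 0.67 or less. In 24 h against unstimulated cells, 9 of the 53 were called lower by edgeR, 0 were called higher and 44 were not called. Of all tested genes, 8.35% were called lower and 10.3% higher in that contrast. The median of their log2 values was -0.06, and the lowest was -0.25 (Rpl12). The 9 lower ones were Ahcy, Cfl1, Kpna2, Rbmxl1, Rnps1, Rpl12, Rpl19, Tagap1 and Tuba1b. The summed level of the 58 genes was 748, 729 and 650 CPM in unstimulated cells, 590, 694 and 634 CPM after 1 h, 798, 595 and 603 CPM after 6 h, and 495, 430 and 401 CPM after 24 h. The 53 coding copies together held 40013 to 42296 CPM after 24 h and 41132 to 43378 CPM in unstimulated cells. Replicate 1 of the 6 h group had the highest sum of the 58 in any library. The 53 genes without a near copy summed to 983 to 1015 CPM after 24 h and to 1615 to 1683 CPM in unstimulated cells.

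**Figure D4:**
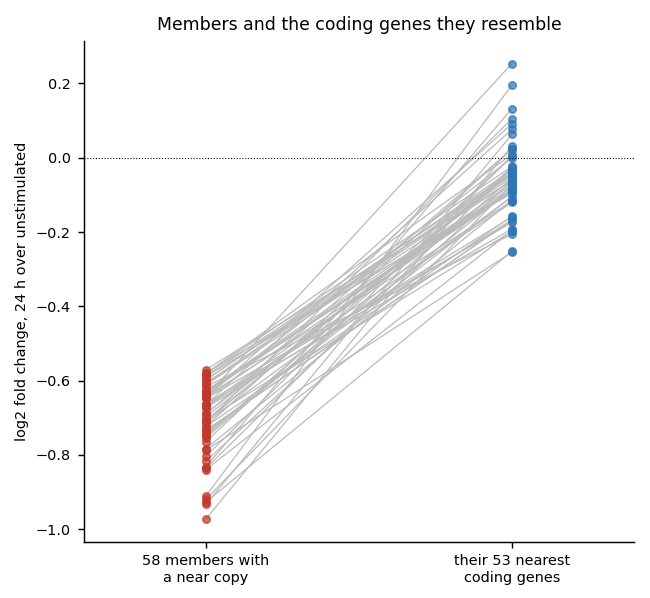
Log2 fold change of 24 h over unstimulated cells (vertical axis) for the 58 genes with a near copy (left, red) and the coding genes they resemble (right, blue), with a line joining each pair. The red points lie low because the genes were chosen so; the 53 coding genes lie around a median of -0.06.

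None of the 58 was called in 6 h or in 1 h against unstimulated cells by edgeR, with 4 and 3 of them at an unadjusted p under 0.05, all lower, where 6.13% and 4.05% of all tested genes passed as lower, and DESeq2 called 0 in both. The 6 h counts hold replicate 3 of that group and are not given without it. Processed pseudogenes outside the set also had a lower median after 24 h. Over the 1249 others that were tested, the median log2 fold change was -0.11 after 1 h, -0.04 after 6 h and -0.33 after 24 h, each against unstimulated cells, with 135 called lower and 12 higher in the 24 h contrast. The median over all tested genes in that contrast was 0.00, with 8.35% called lower and 10.3% higher. Summed, the other pseudogenes held 3083, 2778 and 2761 CPM after 24 h and 3506, 3579 and 3401 CPM in unstimulated cells. By this sum the 24 h group overlapped the blocked groups, where 1 h replicate 1 held 3011 CPM and 6 h replicate 2 held 3004.5 CPM. Split by the longest stretch identical to a coding gene, the median of these other pseudogenes was -0.12 for stretches from 50 to under 100 bases (137 genes), -0.25 from 100 to under 150 bases (269 genes) and -0.41 for 150 bases or more (743 genes). Left out are 7 with shorter stretches and those without a near copy. The longer the identical stretch, the lower the median, and the part that the placement of shared reads has in the lower level was not tested.

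**Figure D5:**
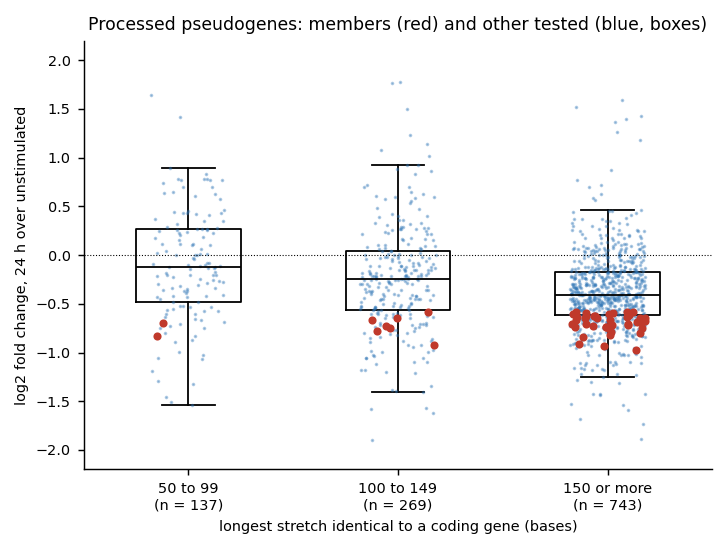
Log2 fold change of 24 h over unstimulated cells (vertical axis) of processed pseudogenes, grouped by the longest stretch identical to a coding gene in bases (horizontal axis). Red points are the genes of the set, blue points and boxes (median, quartiles, and whiskers to 1.5 times the quartile range) are the other tested pseudogenes; the box medians are -0.12, -0.25 and -0.41 from short to long stretches.

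The set was also sensitive to 1 library through these pseudogenes. Without replicate 1 of the 24 h group, 188 genes met the rule, 103 of the 111 and 85 others, and 70 of the 85 were processed pseudogenes. That replicate had the highest summed level of the 58 genes within its group.

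Several of the 53 genes neighbour each other on the genome, taken as less than 100000 bases apart. Neither the pairs nor the counts by chromosome were compared with those of other genes. Cldn10 and Dzip1 on chromosome 14 lie tail to tail with 30 bases between them, P2rx3 and Tnks1bp1 on chromosome 2 lie 10559 bases apart, Tmprss3 and Rsph1 on chromosome 17 lie 56041 bases apart, and the long intergenic RNAs Gm40634 and 4933404K13Rik on chromosome 10 lie 81112 bases apart. The ratios within these pairs were 0.413 for Dzip1 and 0.653 for Cldn10, 0.376 for P2rx3 and 0.67 for Tnks1bp1, 0.441 for Tmprss3 and 0.648 for Rsph1, and 0.579 for Gm40634 and 0.650 for 4933404K13Rik. The 111 genes lay on 20 chromosomes, with at most 13 on 1 of them, chromosome 2. Hvcn1 overlaps Tctn1 and Atp1b1 overlaps Nme7, both on the other strand, and these partners were at -0.07 and -0.03 on the log2 scale in 24 h against unstimulated cells. P2rx3 overlaps Ssrp1 on the other strand, at -0.12. Prr33 overlaps Lsp1 at -0.07 and Tnnt3 at -0.53, so its level is uncertain for the single gene. Rgs10 overlaps the transcript Gm15503 on its own strand, at -2.90, and is uncertain in the same way.

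Promoter windows of 300 bases (250 before and 50 after a gene's start, RefSeq on GRCm38.p6) with the annotated start within 1000 bases were available for 35 of the 111 genes and for 8608 of the tested genes. The IFN-γ-activated element GAS, searched as TTCNNNGAA on both strands, was in 3 of the 35 (8.57%, against 6.56% of all windows), and the ISRE repeat, GAAA and GAAA with 2 bases between, in 1 (2.86%, against 3.02%). The E-box CACGTG, which MYC and its partner MAX can bind, was in 3 (8.57%, against 10.7%), and the EBF motif, TCCC and GGGA with 2 bases between, in 2, those of Ank2 and Umod (5.71%, against 0.941%). With 35 windows 1 gene is worth almost 3 percentage points, so these shares are descriptions of a few genes. The windows of Dzip1 and Trp53i11 are shown because they hold the GAS letters in genes without a near copy, with motif matches in capitals, chr14:118925421-118925720 on the minus strand for Dzip1 and chr2:93187298-93187597 on the plus strand for Trp53i11.
Dzip1: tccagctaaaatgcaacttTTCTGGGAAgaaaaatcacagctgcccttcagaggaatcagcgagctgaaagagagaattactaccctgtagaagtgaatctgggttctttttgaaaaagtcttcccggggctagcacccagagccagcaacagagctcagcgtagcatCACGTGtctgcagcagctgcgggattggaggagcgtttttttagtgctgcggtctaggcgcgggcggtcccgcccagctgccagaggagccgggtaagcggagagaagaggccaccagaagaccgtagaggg
Trp53i11: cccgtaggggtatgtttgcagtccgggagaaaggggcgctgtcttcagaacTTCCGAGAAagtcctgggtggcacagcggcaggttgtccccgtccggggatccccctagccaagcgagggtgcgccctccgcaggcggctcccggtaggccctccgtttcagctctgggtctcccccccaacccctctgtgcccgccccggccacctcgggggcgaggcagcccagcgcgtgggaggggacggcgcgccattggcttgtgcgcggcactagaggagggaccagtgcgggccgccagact
The Dzip1 window holds 1 GAS and 1 E-box match, and the Trp53i11 window 1 GAS match. A match is a run of letters and no evidence of binding.

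Gene lists chosen for this line place the named genes in their pathways, and counts are of list members called by edgeR in 24 h against unstimulated cells beside the 8.35% lower and 10.3% higher of all tested genes. The rule used this contrast, so those of the 111 among the lower genes were chosen for being low. Of 33 tested genes of B cell receptor signalling, 15 were called lower and 6 higher, and Pik3ap1 was the only one of the 111. Fcrla, an Fc receptor-like protein of B cells, was at 185 CPM after 24 h and 268 CPM in unstimulated cells (-0.53 ± 0.04), and the coreceptor Cd72 was at 190 CPM after 24 h and 249 CPM in unstimulated cells (-0.38 ± 0.04), both short of the ratio of 0.67. The kinases Syk at -0.27 ± 0.04 and Lyn at -0.19 ± 0.04 and the phosphatase Inpp5d at -0.27 ± 0.04 were called lower too. The 6 called higher included Themis2 at 1.46 ± 0.08, the largest change of the list, and Ptprc at 0.43 ± 0.04. The others were Pik3cd at 0.30 ± 0.05, Fyn at 0.29 ± 0.06, Cd22 at 0.20 ± 0.04 and Cd81 at 0.14 ± 0.05. The median of the list was -0.10.

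Of 15 tested trypsin-like proteases and serpins 3 were lower, Prss23, Tmprss3 and Serpinf1, and 4 higher, St14, Serpini1, Serpinb1a and Serpinb9. Tmprss3 and Serpinf1 are in the set and Prss23 met its ratio and library criteria, so nothing is read from the count of 3. Of 25 tested PDZ scaffold genes 2 were lower, Pdzd2 and Scrib, and 2 higher, Il16 and Gopc. Of 25 tested lymphocyte G protein-coupled receptors and their regulators 3 were lower and 7 higher. The lower ones were Rgs10, the homing receptor Ccr7 (-0.26 ± 0.06) and the sphingosine phosphate receptor S1pr2 (-0.53 ± 0.17). The higher ones were Ccr9, S1pr1, S1pr4, Gpr18, Lpar6, P2ry10 and Gng2. Of 32 immediate early genes 3 were lower, Spred2 and the phosphatases Dusp2 and Dusp5, and 12 were higher, while Fosb was among those not called. The 12 included Atf3 at 2.27 ± 0.21 and Jun at 2.03 ± 0.22. None of the 111 was in the lists of early B cell regulators, where 8 of 31 were lower and 6 higher, of precursor B cell surface genes, where 3 of 13 were lower and 2 higher, or of one-carbon, nucleotide and polyamine genes, where 11 of 29 were lower and none higher by edgeR. None was in the following lists either. Of 29 tested fatty acid and phospholipid genes 2 were lower and 6 higher, and of 20 genes of TGF-β and BMP signalling 2 were lower and 4 higher. Of 33 G1/S cyclin and E2F genes 3 were lower and 3 higher, of 27 Notch and Wnt genes 1 was lower and 1 higher, and of 23 amino acid and glucose transporters 3 were lower and 1 higher.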

How the data were processed

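RNA from 4 groups of 3 libraries was measured by paired 125-base reads of stranded polyadenylated RNA libraries, per the labels' protocols. The values are raw counts per gene as the authors deposited them. The reads were processed with featureCounts 1.4.3-p1, STAR 2.5.2a and Picard on mm10, per the submitters' processing notes. Not given in the sources used here are the annotation release, the strand setting and how reads with several positions were treated. The header doubles some separators, and its 12 names were assigned to the value columns in their order. Between 69.9% and 73.9% of counts from 1 to 20 were even, as when each mate adds 1 count. Intervals and tests cover counting error and spread between libraries only.

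CPM used raw library totals (49440358 to 67096610). All 4 groups were fitted with edgeR 4.0.16 (R 4.3.3; filterByExpr, TMM, robust quasi-likelihood F tests, 14299 genes tested, 8 residual degrees of freedom), with DESeq2 1.42.0 as an alternative; all 111 genes passed the filter, which their unstimulated level of at least 2 CPM makes likely. Standard errors were derived from the fold change and F. The fit was tested on simulated data. On counts divided by 2, chi-square over degrees of freedom between libraries of 1 group was 2.53 to 8.49, where counting noise alone gives about 1, so none was counted as a repeat. Near copies were found with BLAST 2.17.0 among GENCODE M21 transcripts (GRCm38); promoters came from RefSeq (GRCm38.p6). Of 53379 identifiers, 53274 had a symbol.

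The genes, lists and motifs were chosen with earlier results of these data known. Genes were named if among the 24 lowest ratios, the 4 highest unstimulated levels, the called genes of the blocked contrasts, the thresholds' neighbours, the lists, or at most 6 a role; predicted-gene names were counted, and Gm10275 and the pairs shown were chosen after their values were seen, as were list genes outside the set. Alternatives were other scalings, filters, thresholds, DESeq2, a fit to 6 libraries, a replicate block, and each library left out. Results of some genes that the naming rule takes, and of 1 list, are not reported here.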

Additional observations from a re-analysis of the deposited data

How the results depend on the processing

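The number of genes that met the rule was 111, with 11 at a ratio of 0.5, 195 at 0.75, 68 at a minimum of 5 CPM, 167 without the requirement that libraries not overlap, and 98 to 188 when 1 library was left out, the highest without replicate 1 of the 24 h group. Under TMM or RLE scaling 110 genes met it, 107 of them shared. Called members in 6 h against unstimulated cells numbered 7, with 4 at an adjusted p under 0.01, 4 in a fit to the 6 libraries compared and 4 to 9 leaving out 1 library. In 1 h against unstimulated cells there were 2, with 1 at an adjusted p under 0.01, 5 with a filter of at least 1 count in any library and 1 to 3 leaving out 1 library. In 6 h against 1 h there were 0 in all settings run.

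Over all genes, 228 were called in 6 h against unstimulated cells, with 80 at an adjusted p under 0.01, 413 under the any-count filter, 95 in the fit to 6 libraries, 374 by DESeq2 and 89 to 531 leaving out 1 library, the highest without replicate 3 of the 6 h group. The 60 called in 1 h against unstimulated cells became 21, 174, 104 and 128 under the same 4 alternatives and 15 to 122 leaving out 1 library. The 14 called in 6 h against 1 h became 8, 36, 9 and 34, and 8 to 24. At an adjusted p under 0.01, calls fell to 1562 of 2667 in 24 h against unstimulated cells, 1650 of 2707 against 1 h and 1403 of 2366 against 6 h. The libraries that moved the counts of the first 3 contrasts were unstimulated replicates 1 to 3, 1 h replicates 1 to 3 and 6 h replicates 1 to 3, each by over 1.5 times in at least 1 count. The cause of these differences was not tested. The calls of Atp1b1, Igkv9-124, Hmox1 and Tmem64 in 6 h held in all 22 settings, those of Gm42427, Myl4 and Hvcn1 were lost in 8, 6 and 3, and no direction reversed.

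Replicate numbers did not pair the libraries: correlations of same-numbered deviations ran from -0.066 to 0.062. With the number as a replicate block, 265 genes and 8 members were called in 6 h, 78 and 2 in 1 h (each against unstimulated cells), and 16 and 0 in 6 h against 1 h.

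Genes near 2 CPM rest on about 100 counts a library, and a single mate adds 1 count, so small differences among them were not detectable at this depth. Genes with near copies are uncertain as single genes.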
